A study of Mus with 8 samples.

Results

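The genes described here are 10 genes of bone morphogenetic protein (BMP) and activin signalling, taken by symbol from a table of 31269 gene symbols. They are the ligand genes Bmp2, Bmp4, Bmp6, Bmp7 and Inhba, the receptor genes Bmpr1a and Bmpr2, and the antagonist genes Fst, Grem1 and Nog. All 10 symbols were in the count table, and 9 had enough reads to be tested. Their levels were measured by RNA sequencing of mouse uterus on pseudopregnancy day 6, the hormonal state that follows a sterile mating. There were 4 libraries of control genotype and 4 labelled with a myometrial deficiency of PGR, the progesterone receptor. The comparison asks how uterine expression differs between these groups. Neither the allele, the Cre driver or other means of deletion, nor the strain, age and number of animals per library is stated in the labels. Their tissue entry speaks of implantation sites, although a pseudopregnant uterus carries no embryos. Since nothing says that the libraries came from separate animals, the p-values here reflect only how much the libraries vary, which may be technical.

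BMPs and activins are secreted dimers of the transforming growth factor beta superfamily. They bind pairs of type I and type II serine/threonine kinase receptors, which phosphorylate SMAD proteins: BMP receptors act on SMAD1, SMAD5 and SMAD9, and activin receptors on SMAD2 and SMAD3. Noggin and gremlin bind BMPs, and follistatin binds activins most tightly, so that each keeps its ligand from the receptors. In the mouse uterus Bmp2 is known for its part in decidualization of the stroma, and BMP receptors and follistatin for their part in implantation and fertility.

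Library totals ran from 70296369 to 72364750 reads. Levels are given in CPM, read counts relative to library size, after TMM scaling, which adjusts those sizes for differences in composition. Pgr, the targeted gene (chromosome 9, 8898900 to 8968611 in GRCm38.p6, the assembly used for all positions), had control levels of 131.3, 180.0, 143.8 and 170.9 CPM (libraries 1 to 4). It measured 186.6, 183.9, 177.3 and 159.7 CPM in libraries 1 to 4 labelled deficient, so whole-tissue Pgr was not lower there (log2 difference 0.18 ± 0.11 SE, edgeR adjusted p = 0.338). A loss restricted to muscle cells, or to part of the gene, cannot be read from this value, and the second group is called "labelled deficient" throughout. All listed markers of smooth muscle, stroma, epithelium and endothelium averaged at least 1 CPM. Of 7 decidual markers, the prolactin gene Prl3c1 had no read in any library and Prl8a2 averaged 0.0106 and 0.0181 CPM in the 2 groups. The other 5 had 4 positive differences and 1 negative, and 3 (Alpl, Wnt4 and Htra1) were higher at an unadjusted p under 0.05. The sum over all 7 was 465.7 to 617.4 CPM in the controls and 484.7, 1482.9, 717.0 and 500.9 CPM in libraries 1 to 4 labelled deficient. The summed level of 10 epithelial markers was 1379.8 to 1559.4 CPM in the controls. It was 1440.0, 3703.4, 2695.0 and 1506.2 CPM in libraries 1 to 4 labelled deficient, with 8 positive and 2 negative differences among the markers. Libraries 2 and 3 of that group stood apart here, in the decidual sum, and in the endothelial, uterine gland and macrophage lists. Their sums of 7 endothelial markers were 590.5 and 693.7 CPM (controls 894.7 to 1105.9), and those of 6 uterine gland markers 22.5 and 103.0 CPM (controls 168.5 to 1152.6). The sums of 5 mesothelial markers, all 5 with negative differences, were 296.6 to 378.0 CPM in the controls and 148.2 to 242.8 CPM in the other group. Those of 9 smooth muscle markers, all 9 with negative differences, were 4551.6 to 6741.1 and 4545.4 to 5308.7 CPM, and those of 9 stromal markers 6492.8 to 7924.6 and 7802.5 to 9014.2 CPM. In the stromal list 6 of 9 differences were negative (median log2 -0.09), while the collagen genes Col1a1 and Col3a1, the most abundant, had positive ones. The sums of 8 macrophage markers, all 8 with positive differences, were 820.2 to 1088.5 CPM in the controls. They were 1006.2, 1321.1, 1376.1 and 1089.4 CPM in libraries 1 to 4 labelled deficient, highest in libraries 2 and 3. The sums of 6 ovary or oviduct markers were 153.9 to 208.3 CPM in the controls. Libraries 1 to 4 labelled deficient measured 420.6, 147.8, 189.7 and 173.1 CPM, so library 1 stood apart in this list. Of the 5 tested, 1 difference was positive and 4 were negative. No marker was called by edgeR. In whole tissue, fewer cells of a type and less RNA per cell cannot be told apart.

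Among the 9 tested members, Nog and Bmp4 had lower levels in the libraries labelled deficient, and the intervals of the other 7 included no difference. Mean Nog was 33.8% and mean Bmp4 61.6% of the control level. No member passed edgeR's quasi-likelihood test at an adjusted p under 0.05, and neither did any of the 17629 genes tested (0%; 4372 had an unadjusted p under 0.05, DESeq2 called 2488 and limma-voom 2). Nog and Bmp4 had an unadjusted p under 0.05, both lower, which is 22.2% of the 9 members beside 24.8% of all genes (11.8% lower and 13.0% higher). The members' share is near that of all genes. Their median log2 difference was -0.08, and that of all genes 0.01. DESeq2, run as an alternative, called 2 of the 9 members, again Nog and Bmp4, beside 14.2% of all genes (6.72% lower and 7.43% higher).

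**Figure D1:**
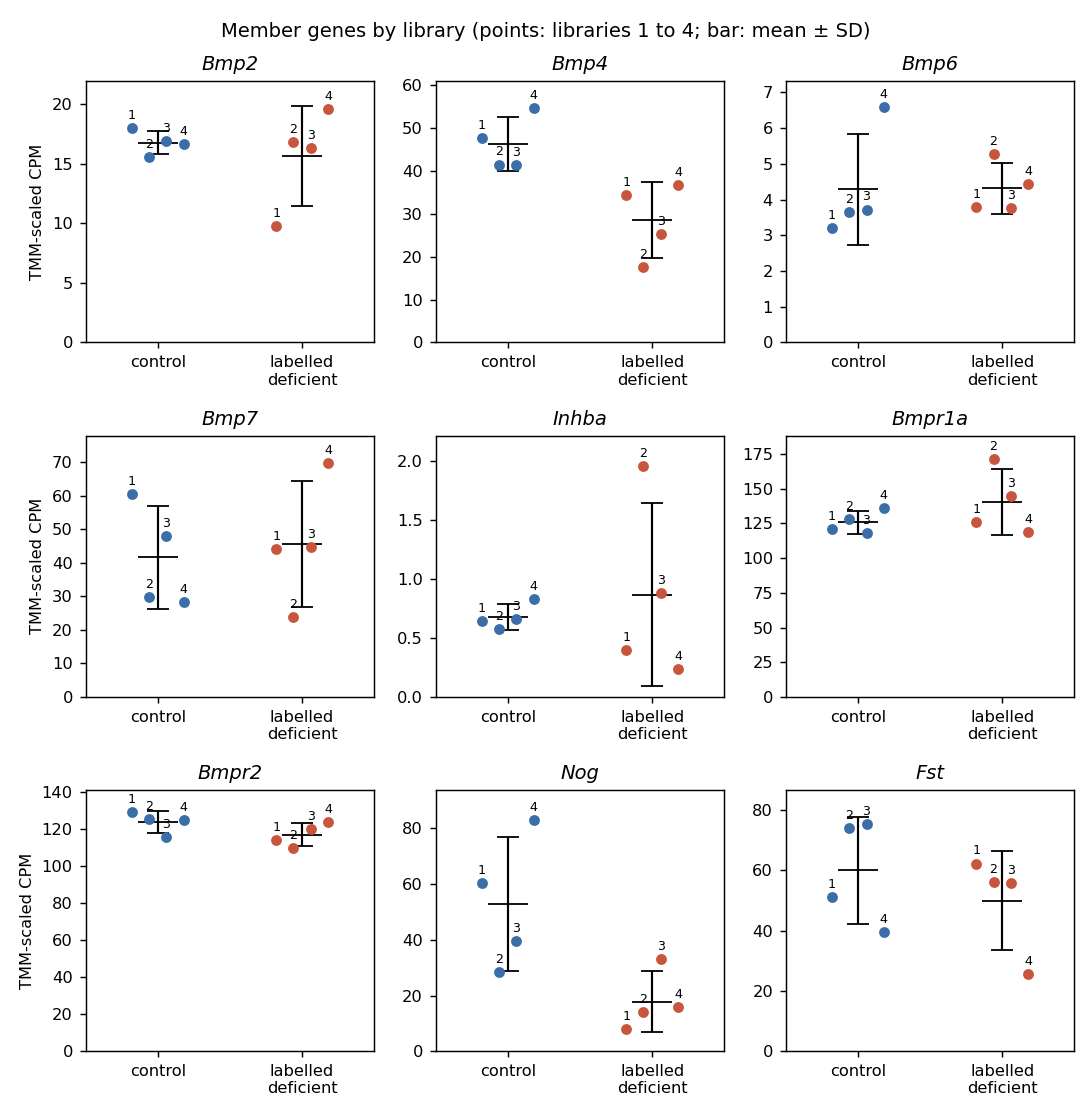
Level of the 9 tested member genes in TMM-scaled CPM (vertical axes from 0) in each control library (blue) and each library labelled deficient (red). Points are libraries, numbered 1 to 4, and bars are the mean ± SD of 4. All 4 red points lie below the blue points for Bmp4 and 3 of 4 do for Nog, while the groups overlap in the other panels.

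Of the ligand genes, Bmp4 (chromosome 14, 46383525 to 46390669), a BMP made by mesenchyme in many organs, had control levels of 47.7, 41.4, 41.3 and 54.5 CPM (libraries 1 to 4). The libraries labelled deficient, in the same order, measured 34.4, 17.5, 25.3 and 36.8 CPM. Every library labelled deficient lay below every control, and libraries 2 and 3 were the lowest. Bmp4 was the single member of the 9 whose groups did not overlap, beside 16.3% of all genes (8.66% lower and 7.61% higher). The means were 46.2 ± 6.27 and 28.5 ± 8.83 CPM (SD, n = 4), a log2 difference of -0.70 ± 0.22 (SE) and a ratio of 0.616 with a 95% interval from 0.432 to 0.880. The edgeR adjusted p was 0.125. The exact permutation p (two-sided) was 0.0286, the smallest that 4 against 4 allows. DESeq2 called it (adjusted p = 0.033), and kept the call in 3 of the 8 runs that left out 1 library, those without library 1, 2 or 4 labelled deficient. Without libraries 2 and 3 labelled deficient the log2 difference was -0.37, and DESeq2 did not call Bmp4. These are the libraries that stood apart in the epithelial, decidual, endothelial, gland and macrophage sums, whose part in this difference was not tested.

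Bmp2 (chromosome 2, 133552159 to 133562896) had one of the tightest control groups among the members, at 17.9, 15.5, 16.9 and 16.7 CPM. Libraries 1 to 4 labelled deficient measured 9.77, 16.8, 16.3 and 19.6 CPM. Library 1 was below all controls and library 4 above them all, with the other 2 within the control range. The means of 16.8 ± 0.992 and 15.6 ± 4.17 CPM (SD, n = 4) gave a log2 difference of -0.10 ± 0.19 (SE) and a ratio between 0.684 and 1.27 (95% interval; edgeR adjusted p = 0.768). Without library 1 labelled deficient the difference was 0.07. That library stood apart in the ovary or oviduct sum, whose part in the Bmp2 level was not tested. The coefficient of variation was 5.91% in the controls and 26.7% in the other group, a difference in spread that was not tested.

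Bmp7 (chromosome 2, 172868012 to 172940321), a BMP of epithelia, varied widely within both groups. It measured 60.4, 29.7, 48.1 and 28.3 CPM in the controls and 44.0, 23.9, 44.7 and 69.9 CPM in the libraries labelled deficient. Library 2 labelled deficient was the lowest of all 8 libraries and library 4 the highest, a 2.92-fold span. The log2 difference of 0.13 ± 0.35 (SE) corresponds to a ratio of 1.10 with a wide 95% interval, from 0.627 to 1.92 (edgeR adjusted p = 0.836). Its sign turned without library 4 labelled deficient (-0.15) or control library 4 (-0.02). Bmp6 (chromosome 13, 38345716 to 38500314) was at a low level of 3.20, 3.65, 3.72 and 6.59 CPM in the controls. It measured 3.79, 5.26, 3.77 and 4.43 CPM in libraries 1 to 4 labelled deficient, all of them within the control range. Its ratio was 1.01 with a 95% interval from 0.672 to 1.51 (edgeR adjusted p = 0.987), and the sign of the difference turned with upper quartile or library-total scaling.

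Inhba (chromosome 13, 16004256 to 16031609) encodes the beta A subunit, of which activin A is a dimer. It had few reads, from 41 to 59 per control library and 29, 132, 62 and 17 in libraries 1 to 4 labelled deficient. On the CPM scale these were 0.647, 0.579, 0.657 and 0.832 in the controls and 0.401, 1.96, 0.880 and 0.233 in the other group. Libraries 1 and 4 labelled deficient lay below every control and libraries 2 and 3 above every control, so that Inhba was split within the group. The log2 difference over all libraries was 0.35 ± 0.59 (SE; 95% interval of the ratio 0.499 to 3.26; edgeR adjusted p = 0.733). It was -0.43 without library 2 and -1.09 without libraries 2 and 3. These 2 libraries also had the high epithelial, decidual and macrophage and low endothelial and gland sums given above. The part of any of these sums in the Inhba split was not tested.

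By the ratio of the highest to the lowest library, the receptor genes had the narrowest span among the tested members. Bmpr2 (chromosome 1, 59764279 to 59878081), the BMP type II receptor, measured 129.5, 125.7, 115.8 and 125.1 CPM in the controls and 114.0, 110.0, 120.3 and 123.8 CPM in the libraries labelled deficient. The highest library was 1.18 times the lowest. The ratio was 0.943, and its 95% interval from 0.856 to 1.04 was the narrowest among the 9 tested members (edgeR adjusted p = 0.415). Bmpr1a (chromosome 14, 34411061 to 34503336), the type I receptor also known as ALK3, measured 120.6, 127.9, 118.2 and 135.9 CPM in the controls. Libraries 1 to 4 labelled deficient measured 125.8, 171.6, 145.0 and 118.9 CPM, with libraries 2 and 3 above every control and the other 2 within the control range. The log2 difference of 0.16 ± 0.12 (SE; edgeR adjusted p = 0.418) became -0.03 without libraries 2 and 3. These 2 stood apart in the epithelial, decidual, endothelial, gland and macrophage sums. The part of these was not tested. Of the 17628 other genes tested, the one whose log2 level followed Bmpr1a most closely over the 8 libraries was Epcam, an epithelial adhesion molecule (Pearson r = 0.991), followed by Snx13 (r = 0.987).

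Of the antagonist genes, Nog (chromosome 11, 89300638 to 89302559), which encodes noggin, differed most in mean level of all the tested members. Its control levels were 60.3, 28.4, 39.6 and 83.0 CPM (libraries 1 to 4). In the same order, the libraries labelled deficient measured 7.98, 14.2, 33.2 and 15.9 CPM. Libraries 1, 2 and 4 labelled deficient were below every control, and library 3 lay between control libraries 2 and 3, so the groups overlapped by that library. The means were 52.8 ± 24.0 and 17.8 ± 10.8 CPM (SD, n = 4). The log2 difference was -1.57 ± 0.47 (SE), a ratio of 0.338 with a 95% interval from 0.159 to 0.717. The edgeR adjusted p was 0.116, and the exact permutation p (two-sided) was 0.0571. DESeq2 called Nog (adjusted p = 0.00947), and again in 6 of the 8 runs that left out 1 library, the exceptions being control library 4 and library 2 labelled deficient. Without libraries 2 and 3 labelled deficient the log2 difference was -2.15, larger than with all libraries, and DESeq2 still called it. The mesothelial sums are lower in the same direction as Nog and Bmp4, and the part of mesothelial content in either difference was not tested.

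Nog also had the widest span of the tested members, with 10.4 times as much in the highest library as in the lowest. Within the controls alone it spanned 28.4 to 83.0 CPM. The genes closest to Nog in pattern over the 8 libraries were Enpep, a membrane aminopeptidase (Pearson r = 0.991), and Hectd3 (r = 0.983). Those closest to Bmp4 were Acin1 (r = 0.992) and Pkd2, the polycystin cation channel (r = 0.988), and those closest to Inhba were the cell cycle genes Chek2 (r = 0.977) and Chaf1b (r = 0.974). Ddx47 and Fam89a were closest to Bmp2, 9530068E07Rik and Folr1 to Bmp6, Rhob and Rtcb to Bmp7, Tdrd1 and Alx1 to Bmpr2, and BB123696 and Dym to Fst, with r from 0.916 to 0.971. Each is among the 2 highest of 17628 values, the points share group and library, and no test is attached to them.

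Fst (chromosome 13, 114452262 to 114458989), which encodes follistatin, measured 51.0, 73.9, 75.4 and 39.5 CPM in the controls and 62.2, 56.0, 55.6 and 25.7 CPM in the libraries labelled deficient. Library 4 labelled deficient was the lowest of the 8 and the others were inside the control range. The means of 60.0 ± 17.6 and 49.9 ± 16.4 CPM (SD, n = 4) gave a ratio of 0.832 with a 95% interval from 0.514 to 1.35 (edgeR adjusted p = 0.603). Its log2 difference was -0.27 with all libraries and -0.05 without library 4 labelled deficient. Grem1 (chromosome 2, 113748675 to 113758648), which encodes gremlin-1, was all but unread. It had 1 read in control library 4, 1 in library 2 labelled deficient and 0 in the other 6 libraries. A count of 0 allows up to 3 reads, or 0.041 to 0.0426 CPM over those 6 libraries, and this covers counting error only. No fold is given for Grem1, and it was not tested.

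Within each library the balance of a ligand to its antagonist can be read without any scaling between libraries. The log2 ratio of Bmp7 to Nog reads was 0.00, 0.06, 0.28 and -1.55 in the controls. In the libraries labelled deficient it was 2.46, 0.75, 0.43 and 2.14. All libraries labelled deficient lay above all controls, with means 1.75 apart on the log2 scale, or 3.35-fold. Bmp7 alone had a log2 difference of 0.13 ± 0.35 and Nog alone -1.57 ± 0.47 (SE), so most of this lies in Nog. The ratio of Bmp4 to Nog was not formed. For Bmp2 to Nog the values were -1.75, -0.87, -1.23 and -2.31 in the controls and 0.29, 0.24, -1.03 and 0.31 in the other group. Here library 3 labelled deficient stayed within the control range, and the means differed by 1.49 (2.82-fold). The log2 ratio of Inhba to Fst was -6.30, -7.00, -6.84 and -5.57 in the controls and -7.28, -4.84, -5.98 and -6.79 in the other group, so the groups overlapped. These ratios are descriptions with no test, and differences in gene length make their absolute size unreadable. The ratios of Bmp2 and of Bmp4 to Grem1 could not be formed, since Grem1 was at 0 in 6 libraries.

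**Figure D2:**
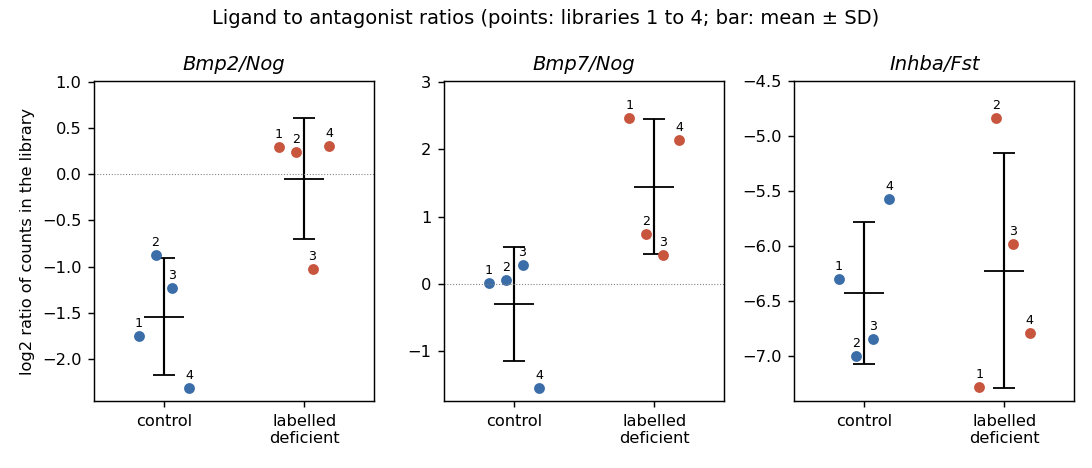
Log2 ratio of read counts of a ligand gene to an antagonist gene within each library, for control libraries (blue) and libraries labelled deficient (red). Points are libraries, numbered 1 to 4, bars are the mean ± SD of 4 and the dotted line marks equal counts. The Bmp7 to Nog values are 0.43 to 2.46 in the libraries labelled deficient and -1.55 to 0.28 in the controls.

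Other genes of the pathway were listed by role, and 57 of 67 had enough reads to test. None was called by edgeR, and 18 had an unadjusted p under 0.05 (11 with positive and 7 with negative differences), which is 31.6% beside 24.8% of all genes. DESeq2 called 12 (9 higher and 3 lower), which is 21.1% beside 14.2%. Groups did not overlap for 5 lower and 5 higher of the 57, beside 8.66% and 7.61% of all genes, so separation was near the background share. Among the other ligands 12 of 14 had a positive difference, with a median log2 difference of 0.68 beside 0.01 for all genes. With a filter of 1 CPM in at least 4 libraries 9 were left, 7 of them positive, and the median was 0.35. Of these 14, 7 were higher and 1 was lower at an unadjusted p under 0.05, beside 13.0% and 11.8% of all genes. Without libraries 2 and 3 labelled deficient 4 were higher and 0 lower, and the median was 0.49. In that setting 3325 of all genes were at that p, against 4372 with all libraries. The number of genes tested there and their split by direction are not given here, so the ligand counts have no background share.

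The activin and inhibin subunit genes had differences of opposite sign. Inha, the alpha subunit that turns activin subunits into inhibins, measured 19.1, 14.5, 14.9 and 18.9 CPM in the controls and 13.1, 10.9, 10.9 and 13.1 CPM in the libraries labelled deficient, with no overlap. Its log2 difference was -0.49 ± 0.13 (SE; edgeR adjusted p = 0.104; DESeq2 adjusted p = 0.0112). DESeq2 called Inha in 5 of the 8 runs that left out 1 library, as it did Inhbb, and neither without libraries 2 and 3 labelled deficient. Inhbb, the beta B subunit, named after its values were seen, measured 62.7, 109.2, 43.6 and 153.7 CPM in the controls and 123.3, 579.2, 428.7 and 151.7 CPM in libraries 1 to 4 labelled deficient. Libraries 2 and 3 were far above every control, and libraries 1 and 4 were within the control range. The log2 difference of 1.80 ± 0.59 (SE; edgeR adjusted p = 0.128; DESeq2 adjusted p = 0.0118) was 0.58 without libraries 2 and 3. As with Inhba, the 2 high libraries are those that stood apart in the same marker sums, and the part of these was not tested.

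Of the BMP and growth differentiation factor ligands, Bmp8b was low but separated the groups, at 0.179 to 0.296 CPM in the controls and 0.355 to 0.835 CPM in the libraries labelled deficient. Its log2 difference was 1.55 ± 0.33 (SE; edgeR adjusted p = 0.0906; DESeq2 adjusted p = 0.00448). Gdf6 measured 0.0827 to 0.411 and 0.539 to 1.71 CPM, also without overlap (log2 difference 1.78 ± 0.52). Bmp5 measured 1.21 to 2.35 CPM in the controls and 2.34, 6.21, 6.14 and 3.91 CPM in libraries 1 to 4 labelled deficient, where library 1 was just inside the control range (1.24 ± 0.35, and 0.67 without libraries 2 and 3). Bmp8a, named after its values were seen, was highest in library 2 labelled deficient at 9.77 CPM, with 0.442, 1.73 and 0.151 CPM in libraries 1, 3 and 4 and 0.207 to 0.593 CPM in the controls. Its log2 difference was 3.10 ± 1.18 (SE) with all libraries and -0.24 without libraries 2 and 3. Bmp8a and Bmp8b are close copies, so their reads may be split or shared by the counting.

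**Figure D3:**
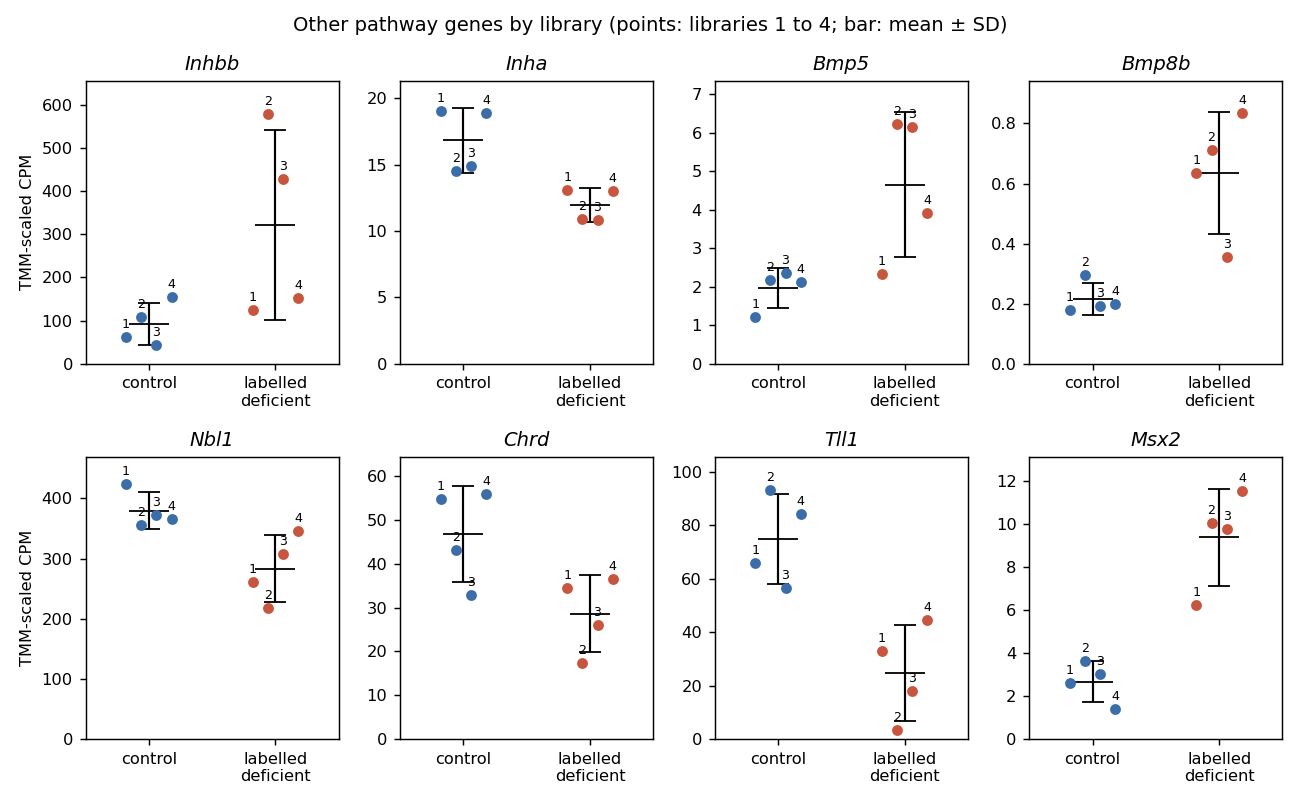
Level of 8 other pathway genes in TMM-scaled CPM (vertical axes from 0) in each control library (blue) and each library labelled deficient (red), with points numbered by library and bars for the mean ± SD of 4. Groups are apart for Inha, Bmp8b, Nbl1, Tll1 and Msx2, while Inhbb is high in libraries 2 and 3 labelled deficient and Bmp5 and Chrd overlap.

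Of 14 other antagonists and extracellular modulators 9 had positive and 5 negative differences. At an unadjusted p under 0.05 there were 1 higher and 4 lower (35.7% beside 24.8% of all genes). Without libraries 2 and 3 labelled deficient there were 4 higher and 2 lower, where 3325 of all genes were at that p. These counts too have no background share or split by direction. Tll1, an astacin protease that cleaves chordin, was named after its values were seen. It measured 65.8, 93.2, 56.5 and 84.2 CPM in the controls and 33.0, 3.41, 18.2 and 44.6 CPM in the other group, without overlap (log2 difference -1.60 ± 0.62; edgeR adjusted p = 0.168; DESeq2 adjusted p = 0.0428), and -0.95 without libraries 2 and 3. DESeq2 called Tll1 in 2 of the 8 runs that left out 1 library, and also without libraries 2 and 3 labelled deficient. Nbl1, a secreted BMP antagonist of the same family as gremlin, was lower without overlap at 218.0 to 345.5 CPM against 355.9 to 424.1 CPM (-0.42 ± 0.14). Chrd, which encodes the BMP antagonist chordin, overlapped at 17.4 to 36.5 CPM against 32.8 to 55.9 CPM (-0.71 ± 0.26, and -0.39 without libraries 2 and 3), and Fstl1, a follistatin-like protein, was at 0.30 ± 0.10. Bmp1, a protease that also cleaves chordin, measured 362.6 to 420.8 CPM in the controls and 325.8 to 382.6 CPM in the other group (-0.20 ± 0.08).

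The other receptors mostly had small differences. Of 12 other receptors and co-receptors 8 had a negative and 4 a positive difference. At an unadjusted p under 0.05 there was 1 (8.33% beside 24.8% of all genes), Acvrl1, the endothelial BMP receptor ALK1 (0.21 ± 0.09). Acvr1b, an activin type I receptor, measured 61.4 to 65.8 CPM in the controls and 60.0, 124.7, 128.8 and 65.5 CPM in libraries 1 to 4 labelled deficient, again high in libraries 2 and 3 (0.57 ± 0.25, and -0.02 without them). Acvr1 was at 0.14 ± 0.08 and Bmpr1b, another BMP type I receptor, at -0.96 ± 0.53. Of 8 SMADs and SMAD ubiquitin ligases 1 was higher and 2 were lower at an unadjusted p under 0.05 (37.5% beside 24.8% of all genes). Smad2, the activin-responsive SMAD, was 49.0 to 50.1 CPM in the controls and 53.1 to 56.9 CPM in the other group (0.15 ± 0.05; edgeR adjusted p = 0.134; DESeq2 adjusted p = 0.012). The groups did not overlap, but DESeq2 called Smad2 in 3 of the 8 runs that left out 1 library and not without libraries 2 and 3. Smad3 (-0.34 ± 0.12) and the BMP-responsive Smad5 (-0.23 ± 0.09) were lower without overlap, and Smad4, the shared partner, was at -0.11 ± 0.07.

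**Figure D4:**
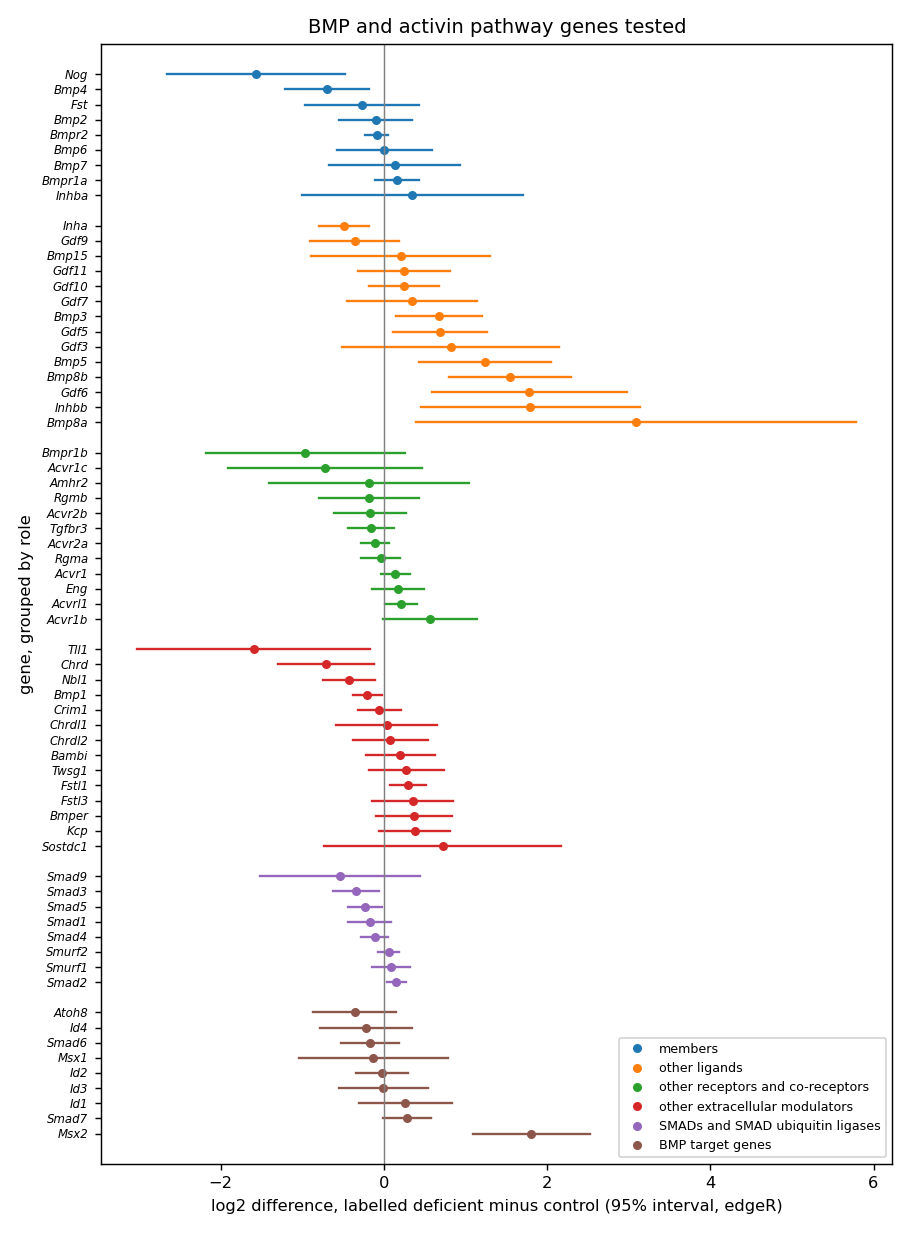
Log2 difference of labelled deficient minus control with its 95% interval from edgeR, for the 9 tested members and 57 other pathway genes grouped by role (colours). The Nog and Bmp4 intervals lie below 0 and those of the other 7 members cross it, and 12 of 14 other ligands have positive differences.

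The genes that BMP signalling is known to induce showed no shared direction, with 6 of 9 differences negative and 3 positive (2 and 7 without libraries 2 and 3 labelled deficient). Id1, Id2, Id3 and Id4, inhibitors of helix-loop-helix transcription factors and standard BMP readouts, were named after their values were seen. They had log2 differences of 0.26 ± 0.25, -0.02 ± 0.14, -0.01 ± 0.24 and -0.22 ± 0.24 (SE), with overlapping groups, and each turned sign when 1 or more libraries were left out. The 95% interval of the ratio for Id1 was 0.808 to 1.79 and that for Id3 0.681 to 1.45. Atoh8 was at -0.36 ± 0.22, and the inhibitory SMAD genes Smad6 and Smad7 were at -0.17 ± 0.16 and 0.28 ± 0.13. Of 9 such genes Msx2, a homeobox gene, was the one with an unadjusted p under 0.05 (11.1% beside 24.8% of all genes). It measured 2.63, 3.67, 3.02 and 1.41 CPM in the controls and 6.23, 10.1, 9.79 and 11.5 CPM in libraries 1 to 4 labelled deficient, with all 4 above all controls. The ratio was 3.50 with a 95% interval from 2.13 to 5.76 (log2 difference 1.81 ± 0.31 SE; edgeR adjusted p = 0.0906; DESeq2 adjusted p = 4.31e-06). Its difference was 1.73 without libraries 2 and 3, and from 1.59 to 2.00 over the runs that left out 1 library. Its paralog Msx1 measured 22.1 to 58.2 and 18.2 to 57.3 CPM, a log2 difference of -0.13 ± 0.40. Msx1 was named after its values were seen. In DESeq2, Msx2 and Bmp8b were called in all 8 runs that left out 1 library, and also without libraries 2 and 3 labelled deficient.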

How the data were processed

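Uterine RNA was extracted with TRIzol and sequenced, per the labels. Per the submitters' processing notes, HISAT2 2.2.1 and HTSeq 0.10.0 were used with mm10; settings, strandedness and annotation are not given in the sources used. Raw counts per gene symbol for 8 libraries were deposited by the authors and matched here by column name to the titles. The member genes and gene lists were chosen with earlier results of these data known. Genes were filtered with filterByExpr (17629 of 31269 kept), scaled with TMM and tested with edgeR 4.0.16 (glmQLFit and glmQLFTest with package defaults, R 4.3.3) with no covariate. P-values were adjusted by Benjamini-Hochberg over all genes tested, with a threshold of 0.05. Standard errors came from the difference and its F value. Single members were also tested by two-sided exact permutation of mean log2 CPM (prior count 2) over 70 placements. Alternatives were other scalings and filters, DESeq2 1.42.0, limma-voom (limma 3.58.1), robust and newer edgeR settings, a replicate block and libraries left out; DESeq2 with libraries left out was added after seeing the data. The tests were tried on simulated counts. Named genes were Pgr, all members, up to 4 genes per role with the smallest p, and the 2 genes most correlated with each member. Other pathway genes singled out are said to be chosen later. Markers were planned as list summaries only, so the single markers named, and Gdf7 and Gdf11, were also chosen after their values were seen. All 28 library pairs differed by more than counting noise. Positions are from a RefSeq table of GRCm38.p6 (mm10 is the same assembly), which held 22353 of the symbols. Levels were not compared between genes, since exon lengths were not used here. A listed modulator gene is not reported here and was left out of the list counts.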

Additional observations from a re-analysis of the deposited data

Results flagged for a closer look

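In 26 groups of 4 values (Pgr, the 9 tested members and 3 ratios in both groups), 3 had a library whose gap to its nearest neighbour was a larger share of the group's range than the 95% critical value of Dixon's test. Chance would flag about 1 in 20 such groups. Control library 4 was high for Bmp6, at 6.59 CPM against 3.20 to 3.72 CPM in the other controls (gap 0.845 of the range). Library 3 labelled deficient was low for the log2 ratio of Bmp2 to Nog, at -1.03 against 0.24 to 0.31 (0.949), and it was the library with Nog in the control range. Control library 4 was low for the log2 ratio of Bmp7 to Nog, at -1.55 against 0.00 to 0.28 (0.849), and it had the highest Nog level of all 8 libraries.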

How the results depend on the processing

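Against 0 genes called by edgeR, DESeq2 called 2488 (1461 without libraries 2 and 3 labelled deficient), limma-voom 2, the newer edgeR setting (legacy=FALSE) 3 and the replicate block 23. Leaving out 1 library gave 0 to 3961 over both tools, the highest with DESeq2 without library 4 labelled deficient. DESeq2 called 2 members and 12 other pathway genes (1 and 7 without libraries 2 and 3 labelled deficient). In DESeq2, leaving out 1 library gave 0 to 2 members and 4 to 15 other pathway genes called. In edgeR it gave 0 of either. At an unadjusted p under 0.05 in edgeR it gave from 2896 (control library 4 left out) up to 5471 (library 4 labelled deficient left out) of all genes and 8 (without control library 4) to 19 of the other pathway genes. The 8 other ligands at that p were 5 with the 1 CPM filter, which drops low genes, and without libraries 2 and 3 labelled deficient 4 ligands passed, Bmp8b and Gdf6 of the 8 and Gdf7 and Gdf11 besides. Members whose groups did not overlap numbered 1 to 2 with 1 library left out. They numbered 3 without libraries 2 and 3 labelled deficient (Bmp4, Inhba and Nog). Groups of 2 and 4 libraries separate more easily by chance than 4 and 4. The smallest two-sided exact permutation p is 0.0667 for 2 against 4 and 0.0286 for 4 against 4. For 2 against 4 that p concerns means and lies below the chance of separating in either direction. The share of all genes without overlap was not counted with libraries left out, so these counts have no background. Without those 2 libraries the sign turned for Bmp6 (-0.057), Bmpr1a (-0.034), Inhba (-1.091), Bmp8a (-0.243), Acvr1b (-0.024), Id2 (0.187), Id3 (0.298) and Id4 (0.097). Bmp6 was also negative with upper quartile scaling (-0.013) and library totals (-0.034), and Inhba with limma-voom (-0.098) and the replicate block (-0.046). With 1 library left out the log2 difference ran from -0.23 to 0.069 for Bmp2, -0.118 to 0.283 for Bmp6, -0.15 to 0.36 for Bmp7, -0.427 to 0.666 for Inhba, -0.009 to 0.427 for Id1, -0.111 to 0.054 for Id2 and -0.213 to 0.191 for Id3. The cause of these turns was not tested. Nog kept its sign in all 20 settings (-2.15 to -1.27), as did Bmp4 (-0.84 to -0.37), Bmpr2 and Fst. Deviations of same-numbered libraries were at most weakly correlated (r = 0.20, 0.24, -0.01 and -0.08). Such values cannot settle whether the numbers pair the libraries, which the labels do not state. The replicate block called 0 members. Inhba, Bmp8b, Gdf6 and Bmp8a were not tested under the 1 CPM filter. The comparison of levels between members was not run, for lack of exon lengths. At 17 to 132 reads per library, Inhba is the tested member most limited by depth.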
